A study of Mus musculus with 12 samples.

Results

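Basement membrane genes and integrins were followed in fetal mouse testes of 2 strains at 3 stages. The set held every gene whose symbol in the platform annotation names a chain of collagen IV, a laminin chain, a nidogen (Nid1, Nid2), perlecan (Hspg2), agrin (Agrn) or an integrin subunit. It came to 43 of the 18193 genes that had a probe set of their own, and to 92 of 45037 probe sets. A gene's value was that of its brightest probe set by the mean of the 12 arrays, and no filter on low values was applied to it. Itgbl1 fits the letters of the rule but is no integrin subunit, and was left out (mean log2 signal 7.13). Itga2b is a subunit whose symbol the rule does not take, and was left out too (mean 8.70).

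The study profiled male genital ridges on 12 Affymetrix mouse expression arrays, which read labelled RNA with short probes. M19 is the chromosome substitution strain 129.MOLF-Chr 19, which carries chromosome 19 of MOLF mice in a 129 genome, and was sampled at E13.5, E15.5 and E17.5 (embryonic days). The other strain is 129 (129/Sv), sampled at the same stages. Each of the 6 groups has 2 arrays, and per the labels 40 testis pairs went into a pool for 2 arrays, without saying which arrays shared one. If both arrays of a group came from 1 pool, the p-values measure a spread that may be technical. The comparisons answer 2 questions of the series: how the strains differ at each stage, and how each strain changes between stages.

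Basement membranes are thin sheets of matrix on which epithelial, muscle and endothelial cells rest. Laminin trimers of an alpha, a beta and a gamma chain form one network, collagen IV trimers form another, and nidogens and the heparan sulfate proteoglycans perlecan and agrin tie them together. Integrins are heterodimers of an alpha and a beta subunit that bind these networks and link them to the cytoskeleton. In the fetal testis a basement membrane surrounds each cord, with Sertoli and germ cells inside and peritubular muscle-like cells outside. Vessels, the ducts of the mesonephros and the coelomic surface have their own.

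Markers of the labelled tissue had means above the median of all probe sets, 8.17, in 9 of 10 Sertoli, 6 of 7 germ cell and 4 of 4 fetal Leydig genes. Group means ran from 10.21 to 12.40 for Amh (Sertoli cells), from 10.62 to 12.43 for Ddx4 (germ cells) and from 11.58 to 13.93 for Cyp17a1 (Leydig cells). Array medians ran from 8.10 to 8.27, and 1 array stood apart. The first 129 array at E13.5 read 9.69 for 18S ribosomal RNA, against 6.88 to 8.38 on the other 11, and differed from its replicate by an SD of 0.38 over probe sets, against 0.161 to 0.292 in the other 5 groups. Both 129 arrays at E15.5 carried genes of skin, muscle and cartilage. At that stage 7 of 9 epidermal markers, 5 of 8 skeletal muscle markers and 4 of 6 cartilage and tendon markers were lower in M19. The summed epidermal level was 11.59 to 11.63 in M19 and 13.56 to 13.61 in 129. In whole organs, fewer cells of a type and less RNA per cell cannot be told apart.

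Over the whole time course, 23 of the 43 genes changed between E17.5 and E13.5 in the mean of both strains (4 arrays against 4, limma, adjusted p under 0.05 over all 45037 probe sets). Of these, 17 were higher and 6 lower at E17.5. Among all genes 27.3% were called, 16.3% higher and 10.9% lower, against 53.5% of the 43. The arrays of the 2 stages did not overlap in 17 genes of the set that were higher and 6 that were lower at E17.5, against 32.6% of all genes in either direction. The 17 higher genes are not all the called ones. Col4a3, Col4a6 and Lamc3 were called with overlapping arrays, while Lama4, Itgb1 and Itgb7 did not overlap and were not called. The median difference was 0.27 on the log2 scale, against 0.06 over all genes. The count was 32 without the first 129 array at E13.5, 26 of them higher, and 15 without the second M19 array at E13.5, 11 of them higher. In 15 of the 23 genes the call held whichever of the 12 arrays was left out; the other 8 were Col4a3, Col4a5, Col4a6, Lamb3, Lamc3, Nid1, Itgb2 and Itgb5. The plot of all members by array shows the stage pattern alike on both sides.

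**Figure D1:**
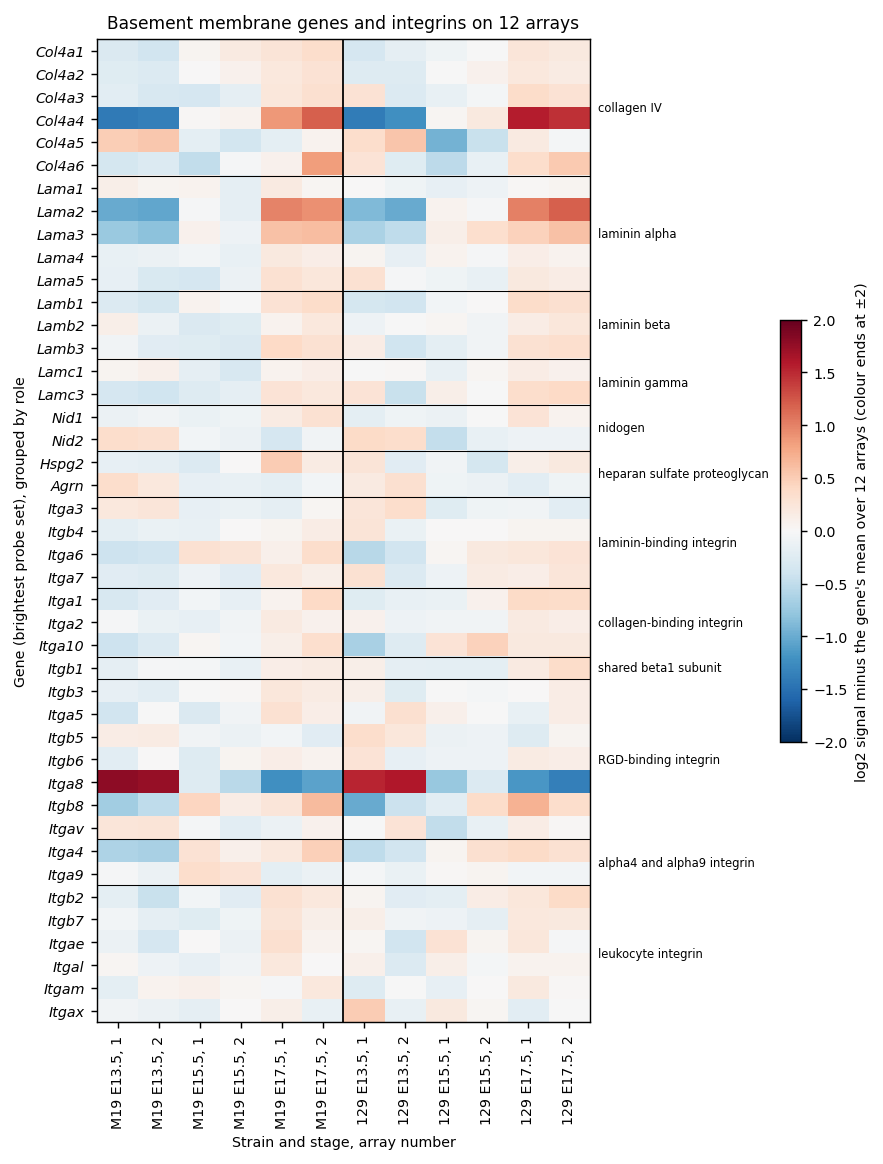
Log2 signal of each of the 43 genes on the 12 arrays as the difference from the gene's own mean, with genes grouped by role down the page and arrays by strain and stage across it, M19 on the left. Itga8 is high at E13.5 and Col4a4 and Lama2 are high at E17.5 in both strains, while the M19 and 129 sides look alike.

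Collagen IV chains form trimers of fixed makeup: alpha1 and alpha2 together in most basement membranes, and alpha3, alpha4 and alpha5 or alpha5 and alpha6 in particular ones. On their brightest probe sets all 6 genes of the family passed the test over the time course, 5 higher and 1 lower at E17.5. Col4a4 changed most. In M19 it read 8.50 and 8.54 at E13.5, 9.93 and 9.99 at E15.5, and 10.78 and 11.10 at E17.5. In 129 the values were 8.52 and 8.68, then 9.95 and 10.10, then 11.49 and 11.37. No array of one stage overlapped another stage, and the 6.16-fold difference (log2 2.62 ± 0.09 SE, adjusted p = 1.8e-08 by limma) placed E17.5 at a mean of 11.18 and E13.5 at 8.56. Col4a3, its partner chain, read 8.11 to 8.25 at E17.5 and 7.57 to 8.17 at E13.5, groups that overlapped through the first 129 array at E13.5. Its difference was 0.43 ± 0.12 (adjusted p = 0.023), and 0.57 at the most when an array was left out, with the call lost in 6 of the 12 such fits.

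The ubiquitous pair moved less. Col4a1 read 13.18 and 13.08 at E13.5, 13.51 and 13.64 at E15.5, and 13.72 and 13.81 at E17.5 in M19. In 129 it read 13.12 and 13.28, then 13.38 and 13.46, then 13.71 and 13.65. Every E17.5 array was above every E13.5 array, by 0.56 ± 0.08 in the mean (1.47-fold, adjusted p = 0.00063). Col4a2 behaved in the same way, at 12.80 to 12.93 at E17.5 and 12.36 to 12.40 at E13.5 (0.47 ± 0.07, 1.39-fold, adjusted p = 0.0011). Both calls held whichever array was left out.

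Col4a5 was the member of the family that fell on its brightest probe set. It read 11.63 and 11.68 at E13.5, 10.95 and 10.78 at E15.5, and 10.94 and 11.21 at E17.5 in M19. The 129 arrays gave 11.50 and 11.70, then 10.20 and 10.69, then 11.32 and 11.11. The E15.5 arrays of 129 were the lowest of the 12, and E17.5 remained below E13.5 by 0.48 in the mean (-0.48 ± 0.12, adjusted p = 0.017, lost in 3 of 12 fits that left out an array). Col4a6 read 10.47 to 11.21 at E17.5 and 10.03 to 10.65 at E13.5 and was called higher (0.59 ± 0.18, adjusted p = 0.036), with overlapping arrays and with the call lost in 6 of the 12. Its other probe set went the opposite way, at 8.91 to 9.15 at E17.5 and 9.46 to 9.61 at E13.5 (-0.55, adjusted p = 0.00096). No single direction can be given for Col4a6.

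**Figure D2:**
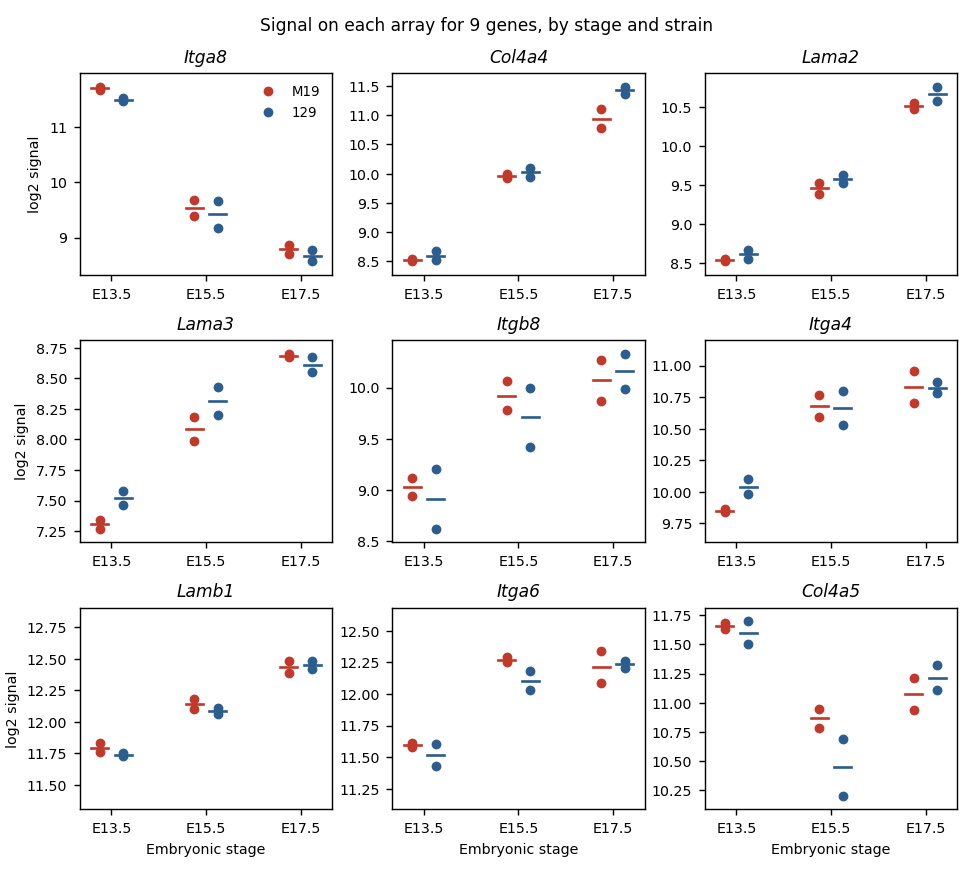
Log2 signal on each array for 9 genes by embryonic stage, each point 1 array and each short bar the mean of 2 arrays, with M19 left of 129 at each stage; each panel has its own vertical axis. Itga8 falls to 8.57 to 8.87 at E17.5, against 11.46 to 11.73 at E13.5, Col4a4 and Lama2 step up at both intervals, and Col4a5 is lowest at E15.5 in 129.

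The mouse genome places these genes in head-to-head pairs, with Col4a1 beside Col4a2 on chromosome 8, Col4a3 beside Col4a4 on chromosome 1, and Col4a6 beside Col4a5 on the X chromosome. RefSeq (GRCm38.p6) sets the start sites of Col4a1 and Col4a2 only 21 bases apart on opposite strands, so that their promoter windows, from 250 bases before the start to 50 bases from it on, share 78 bases. Col4a3 begins at chr1:82586921, inside the promoter window of Col4a4. The start sites of Col4a6 and Col4a5 are 1343 bases apart. The pair that rose alike and the chain with the largest rise are printed here, 5′ to 3′ on the strand of each gene. GC boxes (GGGCGG) and CCAAT boxes on either strand are in capitals. Col4a1 lies at chr8:11312777-11313076 on the minus strand, Col4a2 at chr8:11312555-11312854 on the plus strand and Col4a4 at chr1:82586800-82587099 on the minus strand.
Col4a1: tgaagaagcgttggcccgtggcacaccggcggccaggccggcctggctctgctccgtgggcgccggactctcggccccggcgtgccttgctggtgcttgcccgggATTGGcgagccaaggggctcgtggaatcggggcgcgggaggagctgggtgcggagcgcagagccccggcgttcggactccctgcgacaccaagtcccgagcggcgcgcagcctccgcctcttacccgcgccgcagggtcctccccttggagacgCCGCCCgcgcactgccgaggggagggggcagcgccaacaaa
Col4a2: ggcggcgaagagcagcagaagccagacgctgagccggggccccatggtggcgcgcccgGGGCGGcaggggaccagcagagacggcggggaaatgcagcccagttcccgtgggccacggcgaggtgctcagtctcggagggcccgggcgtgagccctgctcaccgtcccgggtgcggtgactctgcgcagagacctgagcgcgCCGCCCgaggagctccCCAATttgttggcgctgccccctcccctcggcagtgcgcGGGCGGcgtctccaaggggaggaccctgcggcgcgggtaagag
Col4a4: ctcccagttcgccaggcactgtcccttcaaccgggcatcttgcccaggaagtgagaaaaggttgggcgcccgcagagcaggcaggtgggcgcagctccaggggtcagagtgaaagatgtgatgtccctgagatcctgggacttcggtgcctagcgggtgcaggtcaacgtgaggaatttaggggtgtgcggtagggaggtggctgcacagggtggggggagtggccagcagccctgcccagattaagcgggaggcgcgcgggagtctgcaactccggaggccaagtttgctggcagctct

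The Col4a1 window holds 1 GC box and 1 CCAAT box, and the Col4a2 window 3 GC boxes and 1 CCAAT box. The GC box nearest each start is the same site, at chr8:11312812-11312817, and the Col4a4 window holds no letters of either motif. Of the 43 genes, 29 had a promoter in the RefSeq table, with 33 windows in all. GC boxes were in 20 of the 33, against 35.7% of all 32851 windows. CCAAT boxes were in 8, against 37.4%. TATAAA was in none, against 13.6%. These are matches of letters and not shown to be bound.

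Laminin alpha chains carry the sites that cells bind, and 2 of the 5 rose. Lama2, the alpha chain of muscle and peripheral nerve laminins, read 8.55 and 8.52 at E13.5, 9.53 and 9.38 at E15.5, and 10.55 and 10.47 at E17.5 in M19. In 129 it read 8.67 and 8.55, then 9.63 and 9.53, then 10.57 and 10.76. The strains moved side by side and no stage overlapped another, with E17.5 at 4.05-fold of E13.5 (2.02 ± 0.08, adjusted p = 5.4e-08). Lama3, the alpha chain of the epithelial laminin that anchors hemidesmosomes, read 7.34 and 7.27, then 8.18 and 7.99, then 8.67 and 8.70 in M19. The 129 arrays gave 7.46 and 7.58, then 8.20 and 8.43, then 8.55 and 8.67. Its rise was 2.36-fold (1.24 ± 0.09, adjusted p = 3.4e-06) on the probe set used, while the other Lama3 probe set gave -0.04 (adjusted p = 0.77).

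The remaining alpha chains did not pass the test. Lama1, of early epithelial and embryonic membranes, differed by 0.05 (95% interval -0.13 to 0.23). Lama4, of vessel walls, differed by 0.22 (0.05 to 0.40, adjusted p = 0.069), with all E17.5 arrays above all E13.5 arrays. Lama5, of mature epithelial membranes, differed by 0.27 (0.06 to 0.48, adjusted p = 0.067). For Lama4 and Lama5 the interval lies above 0 while the adjusted p misses the threshold.

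Among the beta chains Lamb1, found in most fetal laminins, rose. It read 11.83 and 11.76 at E13.5, 12.18 and 12.10 at E15.5, and 12.39 and 12.48 at E17.5 in M19, and 11.75 and 11.73, then 12.06 and 12.11, then 12.48 and 12.42 in 129. The stages did not overlap (0.67 ± 0.07, 1.60-fold, adjusted p = 8.5e-05). Lamb3, the partner of Lama3, was called at 0.47 ± 0.11 (adjusted p = 0.012), from means of 8.01 at E17.5 and 7.54 at E13.5 that both lie below the median of all probe sets, 8.17. Lamb2, the beta chain of synapses and kidney filters, gave 0.20 (0.01 to 0.38, adjusted p = 0.13). Lamc1, the gamma chain of most laminins, gave 0.06 (-0.11 to 0.24). Lamc3 was called at 0.54 ± 0.13 (adjusted p = 0.015, lost in 3 of the 12 fits), with overlapping arrays because the first 129 array at E13.5 read 9.72 against 8.99 on the second. Its other probe set read 9.09 to 9.66 at E17.5 and 7.82 to 8.04 at E13.5, without overlap (1.43, adjusted p = 1.3e-05).

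The linkers went in different directions. Nid1 read 12.49 to 12.73 at E17.5 and 12.22 to 12.35 at E13.5 and rose (0.32 ± 0.08, adjusted p = 0.017, lost in 4 of the 12 fits without an array). Nid2, its relative, read 11.28 and 11.25 at E13.5, 10.87 and 10.80 at E15.5, and 10.59 and 10.85 at E17.5 in M19. It read 11.30 and 11.28, then 10.45 and 10.78, then 10.83 and 10.82 in 129. All later arrays were below all E13.5 arrays, and the fall by E17.5 was called (-0.50 ± 0.10, 1.42-fold, adjusted p = 0.0035). Agrn also fell, at 11.94 to 12.10 at E17.5 and 12.34 to 12.50 at E13.5 (-0.41 ± 0.08, adjusted p = 0.0042). The other Agrn probe set gave 0.02 (adjusted p = 0.93). Hspg2 was not called at 0.33 (0.04 to 0.62, adjusted p = 0.095).

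Itga8 gave the largest difference of the 43 genes over the time course. It encodes the alpha8 subunit, which pairs with beta1, binds ligands with the tripeptide Arg-Gly-Asp (RGD) such as nephronectin, and is needed in mice for the ureteric bud to invade the kidney mesenchyme. Its promoter window (chr2:12301895-12302194, GRCm38.p6, minus strand) is shown because no other gene of the set fell so far, with capitals for AACAAT, the core bound by Sox proteins, which occurs in 10.7% of all windows and in 3 of the 33 windows of the set.
Itga8: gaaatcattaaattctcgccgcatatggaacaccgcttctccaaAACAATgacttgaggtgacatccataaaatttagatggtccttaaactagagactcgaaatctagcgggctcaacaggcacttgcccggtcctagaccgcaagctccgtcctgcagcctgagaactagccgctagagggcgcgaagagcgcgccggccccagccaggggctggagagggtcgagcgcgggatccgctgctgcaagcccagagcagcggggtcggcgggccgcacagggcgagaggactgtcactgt

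In M19 Itga8 read 11.73 and 11.67 at E13.5, 9.68 and 9.39 at E15.5, and 8.71 and 8.87 at E17.5. The 129 arrays gave 11.46 and 11.53, then 9.18 and 9.66, then 8.77 and 8.57. No stage overlapped another. The mean was 8.73 at E17.5 and 11.60 at E13.5, 7.31-fold lower (-2.87 ± 0.12, adjusted p = 5.1e-08). The other Itga8 probe set fell alike, at 7.66 to 7.97 at E17.5 and 10.06 to 10.57 at E13.5 (-2.58). Most of the change lay in the first interval, where the difference was -2.16 in M19 and -2.07 in 129, against -0.75 in each strain from E15.5 on. Npnt, which encodes nephronectin, also fell over the time course (-1.27 ± 0.21, adjusted p = 0.0015), with means of 10.13, 8.42 and 8.77 in M19 and 10.17, 9.33 and 8.99 in 129 at the 3 stages.

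The other RGD-binding subunits moved in both directions or were not called. Itgb8, a partner of alphav that activates latent TGF-beta, read 8.94 and 9.12 at E13.5, 10.06 and 9.78 at E15.5, and 9.87 and 10.27 at E17.5 in M19. In 129 it read 8.62 and 9.20, then 9.42 and 10.00, then 10.33 and 9.99. Every E17.5 array was above every E13.5 array (1.15 ± 0.17, 2.21-fold, adjusted p = 0.00076), although the replicate arrays of 129 lay apart at E13.5 and E15.5. Itgb5, another partner of alphav, fell to 10.93 to 11.25 at E17.5, against 11.35 to 11.55 at E13.5 (-0.34 ± 0.09, adjusted p = 0.021, lost in 4 of the 12 fits). Its other probe sets were all called lower, at -0.47, -0.46 and -0.60 (adjusted p = 0.0058, 0.0022 and 0.00021 by limma). Itgav itself was not called at -0.16 (-0.39 to 0.08). Itga5, the fibronectin receptor subunit, gave 0.15 (-0.13 to 0.42), Itgb6 0.15 (-0.10 to 0.40) and Itgb3 0.26 (0.06 to 0.47, adjusted p = 0.062).

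Of the 4 laminin-binding subunits, Itga6 rose, Itga3 fell on its brightest probe set and 2 were not called. Itga6, which pairs with beta1 or beta4, read 11.58 and 11.61 at E13.5, 12.29 and 12.25 at E15.5, and 12.09 and 12.34 at E17.5 in M19, and 11.43 and 11.60, then 12.03 and 12.18, then 12.21 and 12.26 in 129. Its difference was 0.67 ± 0.09 (1.59-fold, adjusted p = 0.00032), and it was not called in either strain from E15.5 to E17.5. Itga3, a subunit of receptors for epithelial laminins, read 9.20 to 9.45 at E17.5 and 9.63 to 9.76 at E13.5 (-0.37 ± 0.08, adjusted p = 0.0098). Its other probe sets were not called, at -0.21 (adjusted p = 0.22 by limma) and 0.14 (adjusted p = 0.45). Itga7, the muscle laminin receptor subunit, gave 0.30 (0.03 to 0.56, adjusted p = 0.11), and Itgb4, the hemidesmosome subunit, 0.12 (-0.09 to 0.34).

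Itgb1, the beta subunit shared by all collagen-binding and most laminin-binding integrins, read 11.24 to 11.80 on all arrays. Its difference was 0.27 (0.07 to 0.48, adjusted p = 0.056), with no overlap between the stages. The collagen receptor subunit Itga1 rose, at 8.12 to 8.45 at E17.5 and 7.73 to 7.90 at E13.5 (0.54 ± 0.10, adjusted p = 0.0022). Itga10, known from cartilage, was called at 0.62 ± 0.11 (adjusted p = 0.0018) from means of 7.08 at E17.5 and 6.46 at E13.5, both below the median of all probe sets. Itga2 was not called (0.19, adjusted p = 0.12).

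Itga4, which binds fibronectin and Vcam1, read 9.86 and 9.84 at E13.5, 10.77 and 10.59 at E15.5, and 10.70 and 10.96 at E17.5 in M19. In 129 it read 9.98 and 10.10, then 10.53 and 10.80, then 10.87 and 10.78. It was higher on all later arrays than on any E13.5 array (0.89 ± 0.10, 1.85-fold, adjusted p = 8.2e-05). Itga9, its closest relative, gave -0.02 (-0.19 to 0.14). The 6 leukocyte integrin subunits stood between means of 6.61 and 8.24, and 1 of them, Itgb2, was called (0.48 ± 0.11, adjusted p = 0.011), with means of 7.68 at E17.5 and 7.20 at E13.5. Itgae, Itgal, Itgam, Itgax and Itgb7 gave -0.10 to 0.35 and were not called on their brightest probe sets. A dimmer probe set was called higher for Itgal (0.72) and for Itgae (0.46). Among 9 macrophage and leukocyte markers 1 was higher and 1 lower over the same interval, with a summed level of 12.32 to 12.38 at E17.5 and 12.16 to 12.63 at E13.5, and their part in the Itgb2 result was not tested.

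**Figure D3:**
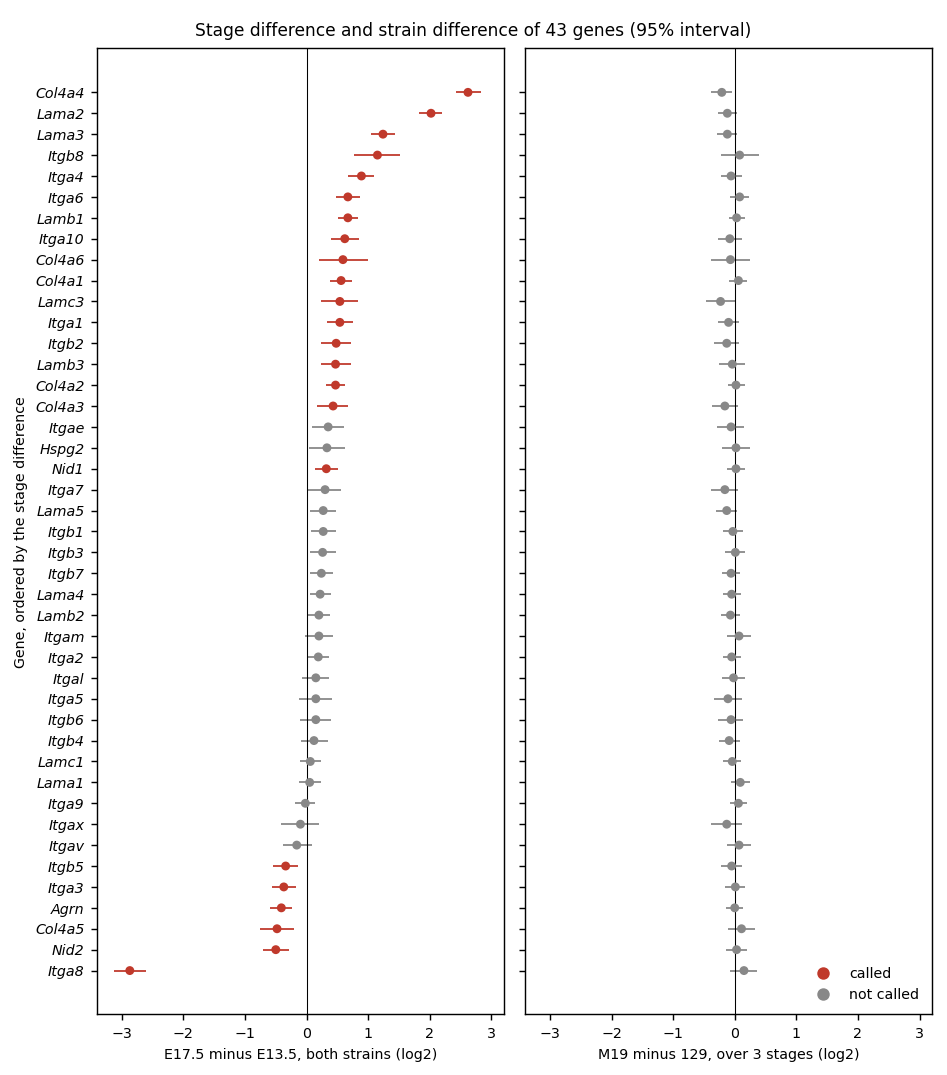
Difference of each of the 43 genes with its 95% interval, E17.5 minus E13.5 over both strains on the left (4 arrays against 4) and M19 minus 129 over the 3 stages on the right (6 against 6), on the same log2 axis and ordered by the stage difference; red marks an adjusted p under 0.05. Stage differences reach from -2.87 for Itga8 to 2.62 for Col4a4, while the strain differences stay between -0.23 and 0.15.

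Between E15.5 and E13.5, 8 of the 43 genes were called in M19, 6 higher and 2 lower, where 7.4% of all genes were called, 5.74% higher and 1.66% lower. In 129 the count was 9, 6 higher and 3 lower, with 6.3% of all genes called, 4.46% higher and 1.84% lower. Col4a4 (1.44 ± 0.13 in M19 and 1.42 ± 0.13 in 129), Lama2 (0.92 ± 0.12 and 0.97 ± 0.12), Lama3 (0.78 ± 0.12 and 0.80 ± 0.12), Itga4 (0.83 ± 0.14 and 0.63 ± 0.14) and Itga6 (0.67 ± 0.12 and 0.58 ± 0.12) rose in each strain. Itga8 and Col4a5 fell in each, Col4a5 by 0.79 in M19 and by 1.15 in 129. The M19 means of Lama3, 7.31 at E13.5 and 8.08 at E15.5, lay below 8.17, the median of all probe sets. The other Lama3 probe set was not called, at -0.16 in M19 and -0.08 in 129. Col4a1 was called in M19 (0.45 ± 0.11, adjusted p = 0.047), a call lost in 10 of the 12 fits without an array, and Nid2 (-0.67 ± 0.14, adjusted p = 0.016) and the dim Itga10 (0.82 ± 0.15, adjusted p = 0.0091) in 129. Leaving out 1 array lost the M19 calls of Itga6 and Col4a5 in 4 of the 12 fits and those of Itga4 and Lama3 in 2, and the 129 calls of Itga4 in 4, Itga6 in 3, Nid2 in 2 and Itga10 in 1. The M19 count was 5 without its first and 3 without its second E13.5 array, and 3 without its first and 5 without its second E15.5 array. With only the arrays compared in the fit the counts were 14 in M19 and 2 in 129. The 129 step rests on the E15.5 arrays that carried skin, muscle and cartilage genes. At E15.5, 7 of 9 epidermal, 5 of 8 skeletal muscle and 4 of 6 cartilage and tendon markers were higher, and their part in the step was not tested.

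Between E17.5 and E15.5, 5 genes were called in M19, 3 higher and 2 lower, against 3.23% of all genes, 1.45% higher and 1.79% lower. In 129, 2 were called, both higher, against 2.42% of all genes, 1.18% higher and 1.24% lower. Col4a4 (0.98 ± 0.13 in M19 and 1.40 ± 0.13 in 129) and Lama2 (1.06 ± 0.12 and 1.08 ± 0.12) rose again in each strain. In M19 Lama3 also rose (0.60 ± 0.12, adjusted p = 0.033), and Itga8 (-0.75 ± 0.17, adjusted p = 0.045) and Itga9 (-0.47 ± 0.10, adjusted p = 0.045) fell, and each of these calls was lost in 8 or 10 of the 12 fits without an array. In 129 the difference of Itga8 was as large but not called (-0.75, adjusted p = 0.052). Col4a5 was not called in M19 (0.21) or in 129 (0.77, adjusted p = 0.057). The M19 count was 9 without either 129 array of E13.5. It was 1 without the first M19 array of E15.5, and 2 without its second, without either M19 array of E13.5 or E17.5 and without either 129 array of E17.5. The 129 count was 4 without either 129 array of E13.5. Both steps of 129 rest on its E15.5 arrays: in the later one 6 of 9 epidermal, 4 of 8 skeletal muscle and 3 of 6 cartilage and tendon markers were lower at E17.5, and their part in it was not tested. Averaging a gene's probe sets gave counts of 8 in M19 and 6 in 129.

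Of the 43 genes, 0 lie on chromosome 19, the chromosome that M19 takes from MOLF, and no gene of the set was called between M19 and 129. At E13.5 the count was 0 of 43 by limma, where 0.033% of all genes were called. At E15.5 it was 0 against 0.682% of all genes, and at E17.5 0 against 0.0934%. Over the 3 stages together, 6 M19 arrays against 6 of 129, it was 0 against 0.462%. Genes at an unadjusted p under 0.05 numbered 1 of 43 at E13.5, where 2.54% of all genes passed that mark, 3 at E15.5 (7.61% of all genes), 1 at E17.5 (1.50%) and 1 over the stages (4.67%). The test of whether the strain difference changed with stage gave 0 of 43 calls, where 0.203% of all genes were called, and 0 genes at an unadjusted p under 0.05, where 3.32% of all genes passed. The lowest adjusted p of any of the 92 probe sets in the 4 strain comparisons was 0.52.

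The intervals bound the strain differences over the stages. The 43 values lay between -0.23 and 0.15, and every 95% interval lay between -0.47 and 0.39. Lamc3 was the lowest in M19 (-0.23 ± 0.11), followed by Col4a4 (-0.21 ± 0.08, adjusted p = 0.86), and Itga8 the highest (0.15). Lamc3 became the 1 call of the set, at -0.35 (adjusted p = 0.046), without the second 129 array of E13.5, the replicate of the array that stood apart. The widest difference at a single stage was that of Col4a4 at E17.5, with 10.78 and 11.10 in M19 and 11.49 and 11.37 in 129. These arrays did not overlap, and the difference of -0.49 had an interval of -0.78 to -0.20 and an adjusted p of 1.0. At E15.5 the widest differences were 0.42 for Col4a5, with means of 10.86 in M19 and 10.44 in 129 (adjusted p = 0.58), and -0.37 for Itga10, with 6.85 in M19 and 7.22 in 129 (adjusted p = 0.56). The count over the stages was also 0 without the 4 arrays of E15.5.

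The hemidesmosome genes of the set are expressed in epidermis and were read beside the skin genes of the 129 arrays at E15.5. Itgb4 had means of 7.68 in M19 and 7.76 in 129 (-0.08, -0.38 to 0.22), Lama3 8.08 and 8.31 (-0.23, -0.50 to 0.04), and Lamb3 7.42 and 7.55 (-0.14, -0.49 to 0.22). Itga6, the partner of Itgb4, went the other way, with 12.27 in M19 and 12.10 in 129 (0.17, -0.10 to 0.44), and none of the 4 was called. Col17a1, a transmembrane collagen of hemidesmosomes outside the set, had 6.39 in M19 and 7.98 in 129 and was called (-1.59). Both means lie below the median of all probe sets, 8.17. At E13.5, where 0 of 9 epidermal markers were called, Col17a1 had 6.05 in M19 and 6.79 in 129 (-0.74, adjusted p = 0.21, not called). The part of skin tissue in the Col17a1 values was not tested.

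Where a gene had further probe sets, most gave the same direction. Of the 43 genes, 28 had more than 1 probe set. The called genes had 26 other probe sets, of which 21 had the sign of the brightest one and 18 were also called in that direction over the time course. The exception called in the opposite direction was that of Col4a6. Sizes differed: the second Col4a3 probe set read 7.87 to 8.64 at E17.5 and 6.12 to 7.00 at E13.5 (1.84, adjusted p = 6.6e-05), against 0.43 for the brightest. The 3 probe sets of Col4a4 gave 2.62, 2.59 and 0.52.

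**Figure D4:**
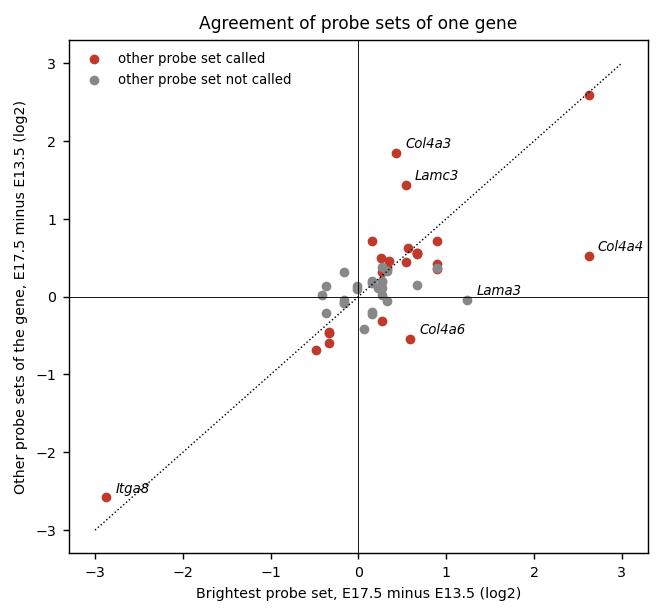
Difference between E17.5 and E13.5 on the log2 scale for each other probe set of a gene (vertical axis, 49 probe sets) against that of the gene's brightest probe set (horizontal axis); the dotted line marks equal values and red marks a called probe set. Itga8 lies near the line, Col4a3 and Lamc3 lie above it, and Lama3 (-0.04) and Col4a6 (-0.55) lie at or below 0 on the vertical axis.

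Other genes of the pathway were read from 4 lists. Among 27 genes of basement membrane assembly and its cell surface receptors, 10 rose and 6 fell between E17.5 and E13.5, with a median of 0.01, where 16.3% and 10.9% of all genes were called higher and lower around a median of 0.06. Egflam (pikachurin, a dystroglycan ligand, 1.17 ± 0.08), Col17a1 (1.03 ± 0.10), Smoc2 (1.01 ± 0.09) and Col15a1 (0.89 ± 0.09) were among those that rose. So were Dag1 (dystroglycan, a laminin receptor, 0.61 ± 0.07) and Sparc (a collagen IV binding protein, 0.47 ± 0.07). The Col17a1 means lay below the median of all probe sets at all 3 stages in both strains. Egfl6 (-1.54 ± 0.16), a basement membrane protein with an RGD site, fell, as did Npnt and the genes of the Fraser complex that joins epithelium to mesenchyme, Frem2 (-0.87 ± 0.11), Fras1 (-0.78 ± 0.13) and Frem1 (-0.63 ± 0.10). Among 18 genes that modify the matrix, 6 rose and 0 fell, with a median of 0.14. Lox, which crosslinks collagen, rose by 1.58 ± 0.09, and P4ha2, a prolyl hydroxylase, by 0.75 ± 0.10.

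Of 17 other integrin ligands, 5 rose and 5 fell, with a median of 0.04. Vwf, carried by endothelium and platelets, rose by 1.96 ± 0.09 and Ccn2 by 1.21 ± 0.10, while Cdh1 (E-cadherin, the ligand of the Itgae integrin, -3.02 ± 0.15) and Postn (periostin, -1.09 ± 0.10) fell. Of 21 genes for the cytoplasmic side of adhesions, 7 rose and 2 fell, with a median of 0.13. Plec (0.77 ± 0.08) and Dst (0.74 ± 0.08), which link integrins to filaments, and Zyx (0.65 ± 0.09) and Ilk (0.50 ± 0.10) of focal adhesions rose. Between M19 and 129 at E15.5 none of these lists had a gene called higher. Called lower in M19 were Egfl6 (-1.94), Col17a1 (-1.59), Postn (-1.60), Tnc (-1.12), Vcam1 (-1.11) and Lox (-0.82), at the stage at which the 129 arrays carried skin, muscle and cartilage genes, and the part of those tissues in these 6 calls was not tested. At E13.5 the lists had 0 calls. At E17.5 they had 1, Cdh1, which was higher in M19 (1.47 ± 0.21, adjusted p = 0.027), with means of 8.28 in M19 and 6.82 in 129. Over the 3 stages Col17a1 (-0.84), Egfl6 (-0.72), Postn (-0.57) and Lox (-0.43) were called lower in M19, in means that include E15.5. Of all genes, 0.682% were called between the strains at E15.5, 0.033% at E13.5, 0.0934% at E17.5 and 0.462% over the 3 stages.

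Markers of the cell types that make or touch basement membranes were read between E17.5 and E13.5, where 16.3% of all genes were called higher and 10.9% lower. Of 5 peritubular muscle markers 3 were higher at E17.5 and 0 lower, with a summed level of 14.01 to 14.12 at E17.5 and 12.45 to 12.85 at E13.5. Of 10 Sertoli markers 7 were higher and 1 lower, at 15.38 to 15.47 and 14.67 to 14.82. Of 8 endothelial markers 2 were higher and 2 lower, at 12.79 to 12.99 and 12.89 to 13.00. Of 4 mesonephros and duct markers 0 were higher and 1 lower, at 10.51 to 10.75 at E17.5 and 11.05 to 11.49 at E13.5, and of 5 coelomic surface markers 0 were higher and 3 lower, at 11.13 to 11.27 and 11.66 to 11.75. Their part in the rises of Col4a4 and Lama2 and in the fall of Itga8 was not tested.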

How the data were processed

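The deposited table gives 1 value per probe set and array. No label states the summary method, background correction or normalization. The deposited values were taken as log2 signal from their range, so fold changes rest on that base. Of 45101 probe sets, 64 controls were left out and 45037 tested. The platform annotation gives 34945 of them 1 gene, 932 several and 9160 none. Gene names, coordinates and promoters came from RefSeq (GRCm38.p6), which matched all 43 genes.

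limma 3.58.1 in R 4.3.3 fitted 6 group means to the 12 arrays (6 residual and 4.82 prior degrees of freedom), with no block and no filter. P-values were adjusted by Benjamini-Hochberg over all probe sets and called under 0.05. Figures used matplotlib 3.10.9. The fit was tested on simulated data. Precision is limited by 2 arrays per group.

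Named with values were up to 10 genes per direction with the largest called difference, whose arrays did not overlap and whose higher mean lay above 8.17, the median of all probe sets. Over the time course 17 called genes met these conditions, and Nid1 came after the first 10 that rose. Called outside them were Col4a3, Col4a6 and Lamc3 (arrays overlap) and Itga10, Itgb2 and Lamb3 (dim), and in single steps Itga10 and Lama3. The other genes of the set are given by level or interval. Sertoli, germ cell, Leydig, peritubular, endothelial, leukocyte, megakaryocyte, red cell, epidermal, muscle, cartilage, mesonephros and coelomic markers were read as lists. The members and all lists were chosen with earlier results of these data known.

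Alternatives were quantile normalization, median centring, trend and robust variances, dim probe sets left out, the mean or next brightest probe set per gene, only the arrays compared, a replicate block, each array left out, and, added after seeing the data, no E15.5 arrays.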

Additional observations from a re-analysis of the deposited data

How the results depend on the processing

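All strain counts and the interaction count were 0 under every alternative run, except 1 for the strain effect over the stages in the leave-one-out range of 0 to 1 (Lamc3). The count over the time course (23 of 43) ran from 17 to 25 under the other alternatives and from 15 to 32 without single arrays. Counts with the next brightest probe set are out of 28 genes. Those without dim probe sets are out of the brighter genes of the set, so neither can be set directly against 23 of 43. The step from E13.5 to E15.5 in M19 (8) gave 13 with trend and robust variances, 14 with only the arrays compared, and 3 to 11 without single arrays. In 129 (9) it gave 2 with only the arrays compared and 6 to 10 without single arrays. The step from E15.5 to E17.5 in M19 (5) gave 1 with the next brightest probe set (28 genes have one), 8 with the mean of all probe sets, and 1 to 9 without single arrays. In 129 (2) it gave 4 with quantile normalization, 4 without dim probe sets, 5 with trend and robust variances, 6 with the mean of probe sets, and 2 to 4 without single arrays. The cause of these shifts was not tested.

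Replicate numbers gave no consistent pairing of the arrays: correlations of same-numbered deviations ran from -0.373 to 0.539 over 15 pairs of groups, and 6 were above 0.1. Variation shared by arrays of different groups, whatever their numbers, was not tested. With the replicate number as a block the M19 count from E15.5 to E17.5 was 3.

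Of 47 called differences, 564 leave-one-out values held the call in 477 and lost it in 87, and 0 changed sign. Of 353 values under other alternatives 322 held it, 26 lost it and 5 changed sign. The 5 used the next brightest probe set: Agrn 0.02 and Col4a6 -0.55 over the time course, and Lama3 -0.16 (M19) and -0.08 (129) from E13.5 to E15.5 and -0.04 over the time course. Only the arrays compared could give no separate value for the strain effect over the stages and the interaction, which use all arrays.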

Other observations

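Some genes of the set that were not called over the time course had a dimmer probe set that was. Between E17.5 and E13.5, Itgal (0.72, adjusted p = 0.00014 by limma), Itgae (0.46, adjusted p = 0.0034) and Itgb3 (0.50, adjusted p = 0.0044) each had 1 that was higher. Lama5 had 1 that was higher (0.32, adjusted p = 0.041) and 1 that was lower (-0.31, adjusted p = 0.028). These make 5 of the 23 other probe sets of genes not called.

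Marker lists not given with the results read as follows over the same interval, where 16.3% of all genes were called higher and 10.9% lower. Of 4 fetal Leydig markers 4 were higher, with a median of 2.16. Of 7 germ cell markers 4 were higher and 3 lower, of 6 megakaryocyte markers 2 and 2, and of 5 red cell markers 1 and 3. Of 9 epidermal markers 1 was higher, of 8 skeletal muscle markers 2 were higher, and of 6 cartilage and tendon markers 1 was lower.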
